A study of Homo sapiens with 4 samples.

Results

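The core circadian clock genes are CLOCK, ARNTL, NPAS2, PER1, PER2, PER3, CRY1, CRY2, NR1D1 and NR1D2. They were chosen by gene symbol, and all 10 were found among the 61806 genes of the deposited table. ARNTL carries the symbol BMAL1 in RefSeq. Their mRNA was measured in JJ012, a human chondrosarcoma cell line, and in 143B, a human osteosarcoma cell line, with both lines kept detached in suspension. Each line gave 1 library from untreated cells and 1 library from cells exposed to 1 mM melatonin for 72 h. Melatonin is the hormone that the pineal gland releases at night. There were no replicates, so no difference could be set against the variation between cultures, and each line was read at 1 time. A change of level and a shift in the phase of a rhythm therefore cannot be told apart, and the hour of harvest was not given in the sources used here.

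The circadian clock is a feedback loop that runs in nearly every cell and turns over about once a day. CLOCK, or its relative NPAS2, pairs with BMAL1, the protein of ARNTL, and the pair binds E-boxes and switches on the PER and CRY genes. PER and CRY proteins then return to the nucleus and silence the pair. The same pair drives NR1D1 and NR1D2, which encode the REV-ERB proteins, and these nuclear receptors repress ARNTL through elements that they share with the activating ROR receptors. D-box factors such as DBP, TEF and the repressor NFIL3 add a further arm that acts on PER genes and on outputs.

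The windows below run from 250 bases before to 50 bases after a RefSeq transcription start, on build GRCh38.p14, and are shown because their genes had the 4 largest log2 fold changes of FPKM + 1 in JJ012 (NR1D2, PER3, NR1D1, PER1, though CLOCK, CRY1 and CRY2 exceeded PER1 by CPM) or, for ARNTL, because it is the gene that the REV-ERB proteins repress and it did not pass the threshold in either line. Each is read 5′ to 3′ on the strand of the gene. Capitals mark the motifs found by their letters on either strand, and no motif overlapped another. NR1D2 is at chr3:23945871-23946170 on the plus strand, with a D-box and 2 E-boxes in capitals. PER3 is at chr1:7784041-7784340 on the plus strand, with a D-box. NR1D1 is at chr17:40100540-40100839 on the minus strand, with an E′-box. PER1 is at chr17:8152355-8152654 on the minus strand, with an E-box, a half-site for REV-ERB and ROR and a D-box variant. ARNTL is at chr11:13277540-13277839 on the plus strand, with a half-site for REV-ERB and ROR. NR1D2, PER3 and ARNTL each had another RefSeq window, not shown, that held 0 of the motifs searched. For these genes the window with a motif is the one shown.
NR1D2: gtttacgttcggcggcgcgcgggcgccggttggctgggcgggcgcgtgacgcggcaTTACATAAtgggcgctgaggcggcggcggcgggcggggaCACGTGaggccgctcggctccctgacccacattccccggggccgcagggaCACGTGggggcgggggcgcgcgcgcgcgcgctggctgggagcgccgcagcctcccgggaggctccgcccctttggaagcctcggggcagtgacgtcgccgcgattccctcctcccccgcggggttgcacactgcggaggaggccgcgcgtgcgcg
PER3: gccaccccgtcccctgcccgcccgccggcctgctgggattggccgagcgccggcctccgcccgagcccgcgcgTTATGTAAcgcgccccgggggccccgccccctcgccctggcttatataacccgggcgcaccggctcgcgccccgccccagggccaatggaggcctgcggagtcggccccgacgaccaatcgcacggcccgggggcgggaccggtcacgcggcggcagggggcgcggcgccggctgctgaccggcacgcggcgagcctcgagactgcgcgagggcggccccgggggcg
NR1D1: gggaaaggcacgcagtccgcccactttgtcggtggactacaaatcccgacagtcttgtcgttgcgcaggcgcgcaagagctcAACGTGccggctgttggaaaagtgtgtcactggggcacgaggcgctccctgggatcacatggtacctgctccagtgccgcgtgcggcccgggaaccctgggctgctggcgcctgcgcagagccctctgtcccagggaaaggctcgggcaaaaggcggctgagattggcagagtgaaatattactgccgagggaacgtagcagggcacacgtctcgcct
PER1: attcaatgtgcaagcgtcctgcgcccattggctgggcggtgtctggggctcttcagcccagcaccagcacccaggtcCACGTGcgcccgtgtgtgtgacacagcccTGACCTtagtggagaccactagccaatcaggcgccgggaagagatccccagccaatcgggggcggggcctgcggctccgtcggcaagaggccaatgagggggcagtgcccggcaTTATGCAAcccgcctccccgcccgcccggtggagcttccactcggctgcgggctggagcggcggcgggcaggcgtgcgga
ARNTL: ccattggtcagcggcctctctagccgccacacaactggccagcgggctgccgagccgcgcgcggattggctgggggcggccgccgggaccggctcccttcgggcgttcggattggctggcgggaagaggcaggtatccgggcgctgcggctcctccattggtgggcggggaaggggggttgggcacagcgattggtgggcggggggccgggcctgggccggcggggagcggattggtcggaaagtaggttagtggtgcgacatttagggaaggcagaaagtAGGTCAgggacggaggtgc

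RefSeq gave 15 such windows for the 10 genes, and 35116 windows over all genes. The E-box, searched as CACGTG, stood in 2 of the 15 windows, at -173 in PER1 (bases from the start, negative upstream) and at -155 and -105 in NR1D2. It stood in 7.26% of all windows. The E′-box, CACGTT, stood in 5 of the 15, which belong to CLOCK, PER2, CRY1, CRY2 and NR1D1 (at -168 in NR1D1), and in 5.34% of all windows. The D-box, TTATGTAA, stood in 2 of the 15, at -177 in PER3 and -194 in NR1D2, and in 0.886% of all windows, and the variant TTATGCAA stood in PER1 alone among these genes (at -30) and in 0.846% of all windows. The half-site AGGTCA stood in 4 windows of 3 genes (ARNTL at 31 bases after the start, PER1 at -144 and both windows of CRY2) and in 13.8% of all windows. The cyclic AMP response element, TGACGTCA, stood in 0 of the 15 and in 1.85% of all windows. These matches describe the letters of the windows, and NPAS2 held none of the motifs in its window.

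The total was between 15889564 and 19218343 counts per library, so that the floor of 3 counts lay between 0.156 and 0.189 CPM (counts scaled to the library total). Between 13198 and 14477 genes reached 1 FPKM (counts scaled to exonic length and to the library total). The share of mitochondrially encoded genes was 6.78% in untreated JJ012 and 4.35% with melatonin, against 1.63% and 2.46% in 143B. Cartilage was marked by little but SOX9, a regulator of cartilage cells, at 6.16 to 15.48 FPKM. Of 9 chondrocyte markers, 2, 1, 1 and 1 reached 1 FPKM in the JJ012 control, JJ012 with melatonin, the 143B control and 143B with melatonin, and COL2A1, the collagen of cartilage, had 0 counts in both JJ012 libraries. Of 9 osteoblast markers, 2 reached 1 FPKM in either 143B library, RUNX2 and BGLAP, while SP7 was at 0 to 0.02 FPKM and DMP1 had 0 counts in all 4 libraries. In the JJ012 control 4 of the 9 reached 1 FPKM, and their sum was 107.2 FPKM, most of it SPP1 at 79.39 FPKM, against 6.97 FPKM in the 143B control. By their sum the bone markers were thus higher in the chondrosarcoma line than in the osteosarcoma line, which goes against the labels. SPP1, COL1A1 and COL1A2 carried this sum. RUNX2 (3.02 FPKM in the JJ012 control, 4.28 FPKM in the 143B control) and BGLAP (0.81 and 1.44 FPKM) were lower in JJ012, and ALPL was at 0.35 and 0.36 FPKM. Most cartilage markers were low in both lines.

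Per length, REV-ERB and PER1 mRNAs were the most abundant of the 10 in each library, and ARNTL was among the 2 lowest. The activators CLOCK, ARNTL and NPAS2 summed to 9.61 FPKM in the JJ012 control, 12.2 FPKM in JJ012 with melatonin, 18.2 FPKM in the 143B control and 17.5 FPKM in 143B with melatonin. The 5 PER and CRY genes summed to 31.6, 56.9, 42.5 and 33.0 FPKM in the same libraries. NR1D1 and NR1D2 summed to 34.0, 78.1, 51.8 and 32.4 FPKM. In JJ012 all 3 sums were higher with melatonin than in the control, and in 143B all 3 were lower. In the plot of levels by library, this shows as dark blue above light blue for most genes and dark orange below light orange.

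**Figure D1:**
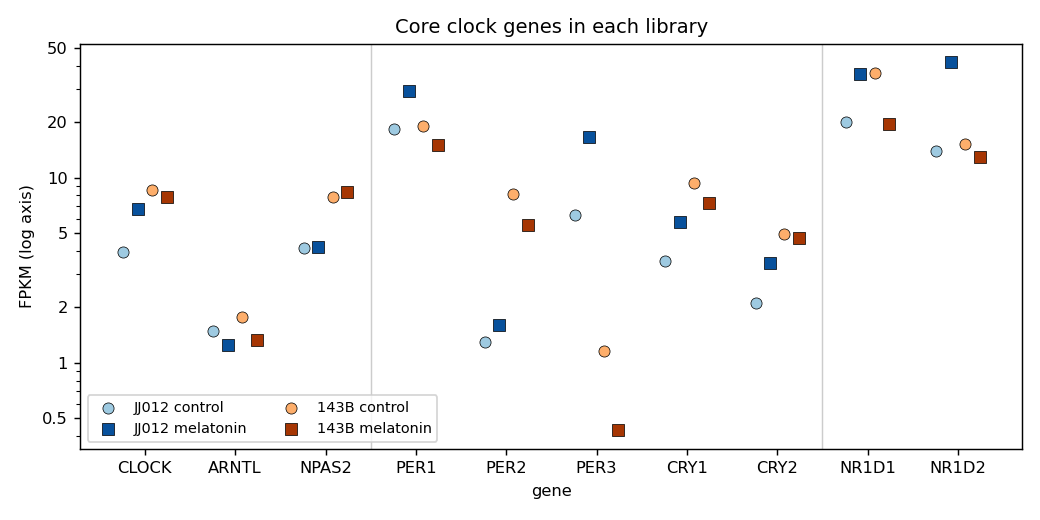
Level of each core clock gene (FPKM, log axis) in the 4 libraries, 1 point per library, with grey lines between activators, PER and CRY repressors and REV-ERB receptors. NR1D2 stands at 41.93 FPKM in JJ012 with melatonin and at 12.97 to 15.26 FPKM in the other 3 libraries, and PER3 is the lowest of the 10 in both 143B libraries.

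NR1D1 led the order in 3 libraries and NR1D2 in JJ012 with melatonin. The JJ012 control ran from NR1D1 and PER1 through NR1D2, PER3, NPAS2, CLOCK, CRY1 and CRY2 to ARNTL and PER2. Of its 9 pairs of neighbours, 3 did not differ beyond counting error, which were NPAS2 and CLOCK, CLOCK and CRY1, and ARNTL and PER2. With melatonin the JJ012 order was NR1D2, NR1D1, PER1, PER3, CLOCK, CRY1, NPAS2, CRY2, PER2 and ARNTL, and 0 of the 9 pairs had an interval that included a ratio of 1. The 143B control ran NR1D1, PER1, NR1D2, CRY1, CLOCK, PER2, NPAS2, CRY2, ARNTL and PER3, and the 3 pairs from CRY1 to NPAS2 did not differ beyond counting error. In 143B with melatonin NPAS2, CLOCK and CRY1 followed NR1D2 with 2 undecided pairs among them, and PER2, CRY2, ARNTL and PER3 came last. Counting intervals leave out the variation between cultures, which was not measured.

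In JJ012, 5 of the 10 core clock genes passed the threshold upward with melatonin and 0 passed it downward. These were NR1D2, PER3, NR1D1, PER1 and CLOCK, with log2 fold changes between 0.65 and 1.52. The threshold was an absolute log2 fold change of 0.58, the fold part of the study's criterion, which also asked for an adjusted p that could not be had here, computed on FPKM + 1 over genes with at least 1 FPKM in either library. Of all 15794 genes that met this filter 38.2% passed in either direction, 19.6% upward and 18.6% downward. The median over the 10 genes was 0.61, while that over all tested genes was 0.01. Within JJ012 alone, with 1 library per condition, no test was possible.

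NR1D2 moved most on the FPKM + 1 scale, and both REV-ERB genes passed. NR1D2 (ENSG00000174738, hg38 chr3:23945286-23980617, plus strand), a receptor that senses heme and represses ARNTL, was at 13.94 FPKM in the JJ012 control and 41.93 FPKM with melatonin, from 1552 and 3921 counts. Its CPM was 3.01-fold higher, with an exact 95% interval of 2.84 to 3.19 that covers counting error only, and its log2 fold change of 1.52 on the FPKM + 1 scale was higher than that of 98.2% of the tested genes. NR1D1 (ENSG00000126368, chr17:40092793-40100589, minus strand), its closest relative, was at 20.04 FPKM in the control and 36.18 FPKM with melatonin. The CPM of NR1D1 was 1.81-fold higher (1.67 to 1.96). Both genes overlap a neighbour on the other strand, NR1D1 with THRA over 1075 bases and NR1D2 with NKIRAS1 over 1306 bases. Overlaps here and below are of whole gene spans, introns included. Whether counting used strand was not given in the sources used here, so how reads from shared bases were counted is not known. THRA went from 2372 to 1807 counts and NKIRAS1 from 567 to 585 counts.

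Among the repressors PER3 moved most. PER3 (ENSG00000049246, chr1:7784291-7845177, plus strand), the period gene least needed for rhythms in mice, was at 6.27 FPKM in the JJ012 control and 16.61 FPKM with melatonin, and its CPM was 2.65-fold higher (2.45 to 2.86). An unnamed antisense gene over 17101 bases of PER3 had 14 counts in the control and 56 with melatonin, against 980 and 2180 for PER3. PER1 (ENSG00000179094, chr17:8140472-8156506, minus strand), which also answers quickly to hormones and other signals, was at 18.38 and 29.53 FPKM, 1.61-fold higher in CPM (1.52 to 1.69). PER2 (ENSG00000132326, chr2:238244044-238290102, minus strand), a central period gene, stood at 1.29 and 1.60 FPKM from 170 and 177 counts. Its CPM ratio of 1.24 had an interval from 0.999 to 1.54, so that at this depth no difference was detectable.

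The cryptochromes came close to the threshold without passing it. CRY1 (ENSG00000008405, chr12:106991364-107093549, minus strand), a strong repressor of CLOCK and BMAL1, was at 3.54 FPKM in the JJ012 control and 5.74 FPKM with melatonin, a log2 fold change of 0.57. CRY2 (ENSG00000121671, chr11:45847118-45883248, plus strand), its relative, was at 2.11 and 3.46 FPKM, a log2 fold change of 0.52. In CPM, with no pseudocount, CRY1 was 1.62-fold higher (1.40 to 1.88) and CRY2 1.64-fold higher (1.39 to 1.94), the size seen for PER1. With a pseudocount of 0.1 FPKM, with TPM or with CPM both genes passed and the count was 7 of 10. Of all tested genes 48.6%, 50.3% and 39.5% passed under these settings, against 38.2% in the main setting.

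The activators did not move together. CLOCK (ENSG00000134852, chr4:55427903-55546909, minus strand) was at 3.97 FPKM in the JJ012 control and 6.78 FPKM with melatonin, 1.71-fold higher in CPM (1.57 to 1.86). It overlaps TMEM165 on the other strand over 25495 bases, and TMEM165 went from 3888 to 1774 counts. NPAS2 (ENSG00000170485, chr2:100820139-100996829, plus strand), which can stand in for CLOCK, was at 4.16 and 4.22 FPKM, with a CPM ratio of 1.01 and an interval from 0.923 to 1.11. ARNTL (ENSG00000133794, chr11:13276652-13387266, plus strand), the partner of both, was at 1.48 and 1.24 FPKM from 197 and 139 counts. The CPM of ARNTL was 1.19-fold lower, with an interval of the ratio (melatonin over control) from 0.671 to 1.05 that included no difference, and with TPM its log2 fold change was 0.017. Over the 10 genes, 7 intervals lay above 0 on the log2 scale (36.9% of tested genes), 0 lay below (35.2%) and 3 included it, those of ARNTL, NPAS2 and PER2.

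**Figure D2:**
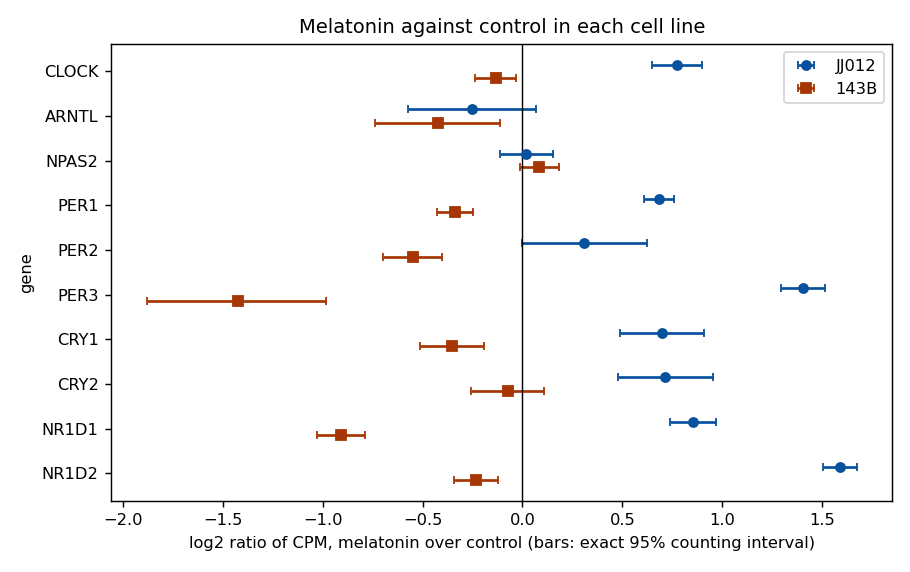
Log2 ratio of CPM, melatonin over control, for each core clock gene in JJ012 (blue circles) and 143B (red squares), with exact 95% counting intervals as bars. In JJ012, 7 intervals lie above 0 and none below, and in 143B 8 lie below 0 and none above.

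The difference in JJ012 went with exonic length over the whole table. Across the 15794 tested genes the log2 fold change of JJ012 and exonic length had a Spearman correlation of 0.24 (a description across genes of 1 pair of libraries), with bin medians of 0.35 for the shortest and 0.37 for the longest genes and lower values between. The core clock genes have exons of 2630 to 12504 bases in sum. Less the median of the genes of like length (20 bins), NR1D2 was at 1.42, NR1D1 at 1.03 and PER3 at 1.02, and these 3 passed the threshold. PER1 at 0.46 and CLOCK at 0.32 no longer did, so that the count was 3 in place of 5, and NPAS2 was at -0.31. Of all tested genes 34.7% passed on this scale, against 38.2% before. The bin of NR1D1, the shortest of the 10, had a median of -0.21, and that of CLOCK and NPAS2, the longest, had a median of 0.32. The part of length in these differences was not tested. In 143B the same correlation was -0.0084.

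**Figure D3:**
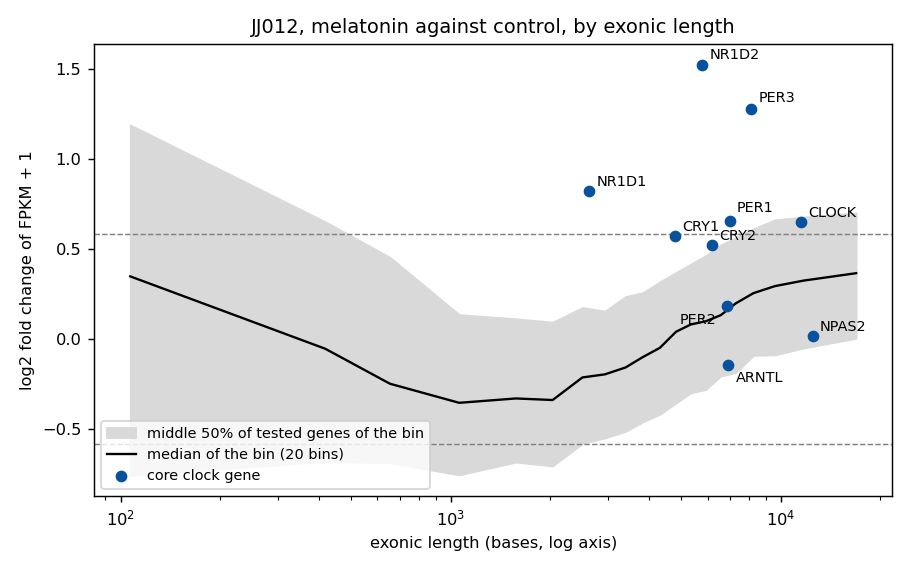
Log2 fold change of FPKM + 1, melatonin over control in JJ012, against exonic length (bases, log axis), with the median (line) and the middle 50% (grey) of all tested genes in 20 length bins and dashed lines at the threshold of 0.58. NR1D2, PER3 and NR1D1 lie furthest above the line of their length, and ARNTL and NPAS2 lie below it.

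The JJ012 libraries also differed in genes of other cell types. The summed level of 9 osteoblast markers was 107.2 FPKM in the JJ012 control and 68.3 FPKM with melatonin, with COL1A1 at 10.92 and 0.77 FPKM and COL1A2 at 12.48 and 0.14 FPKM. The 3 leukocyte markers summed to 13.2 and 5.45 FPKM, most of it CD3E at 9.73 and 3.28 FPKM, and PTPRC was at 0.14 and 0.02 FPKM. The 9 chondrocyte markers summed to 18.5 and 7.35 FPKM. The 2 endothelial markers summed to 1.92 and 0.79 FPKM, and the 2 epithelial markers to 0.16 and 0.05 FPKM. In 143B the osteoblast sum was 6.97 and 5.08 FPKM, the chondrocyte sum 17.4 and 14.0, the leukocyte sum 0.83 and 1.20, the endothelial sum 2.40 and 2.04, and the epithelial sum 1.40 and 0.80 FPKM. The part of these markers in the clock gene differences was not tested, and in bulk RNA fewer cells of a type and less RNA per cell cannot be told apart.

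In 143B, 2 of the 10 core clock genes passed the threshold downward with melatonin and 0 passed it upward. These were NR1D1 and PER3. Of all 14135 tested genes 12.7% passed in either direction, 6.65% downward and 6.09% upward. The median over the 10 genes was -0.28, while that over all tested genes was 0.03. Over the 10 genes, 8 counting intervals lay below 0 (23.5% of tested genes), 0 lay above (28.4%), and those of NPAS2 and CRY2 included it.

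NR1D1 was at 36.54 FPKM in the 143B control and 19.47 FPKM with melatonin, from 1527 and 879 counts, and its CPM was 1.88-fold lower (1.73 to 2.04). Its log2 fold change of -0.87 was lower than that of most genes, with 3.35% of the tested genes below it. NR1D2 was at 15.26 and 12.97 FPKM, 1.18-fold lower in CPM, which did not pass the threshold. THRA, over the end of NR1D1, had 422 and 417 counts. The 2 REV-ERB genes thus differed in size, and NR1D1 made up 70.5% of their summed level in the 143B control and 60.0% with melatonin, against 59.0% and 46.3% in JJ012.

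PER3 was at 1.15 FPKM in the 143B control and 0.43 FPKM with melatonin, from 149 and 60 counts. Its CPM was 2.68-fold lower (1.98 to 3.68), while its log2 fold change on the FPKM + 1 scale was -0.59, just past the threshold, since the pseudocount outweighs such a low level. With a filter of 5 FPKM PER3 was not tested and the count was 1. PER2 was at 8.11 and 5.54 FPKM, 1.46-fold lower, with a log2 fold change of -0.48 that did not pass. PER1 at 18.96 and 15.02 FPKM was 1.26-fold lower, and CRY1 at 9.30 and 7.29 FPKM was 1.28-fold lower. CRY2 stood at 4.96 and 4.72 FPKM, with an interval of its log2 CPM ratio from -0.26 to 0.11.

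The activators stayed under the threshold in 143B. ARNTL was at 1.77 FPKM in the control and 1.32 FPKM with melatonin, from 195 and 157 counts, 1.34-fold lower in CPM. CLOCK was at 8.60 and 7.83 FPKM, 1.10-fold lower. NPAS2 was at 7.85 and 8.33 FPKM, and its CPM ratio of 1.06 had an interval from 0.990 to 1.14. In neither line did the interval of NPAS2 leave out a ratio of 1.

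Set side by side, 6 of the 10 genes had an interval above 0 in JJ012 and below 0 in 143B. These were CLOCK, PER1, PER3, CRY1, NR1D1 and NR1D2. Among the 11822 genes tested in both lines 11.0% did so, while 10.5% had the opposite pattern, 14.2% were above 0 in both lines and 8.48% below 0 in both, and 0 of the 10 clock genes had any of those other patterns. By the fold threshold NR1D1 and PER3 were higher in JJ012 and lower in 143B, which held for 1.16% of genes. These 2 comparisons share no library. The log2 CPM ratio of JJ012 less that of 143B was 2.83 for PER3 (95% counting interval 2.38 to 3.27), 1.82 for NR1D2 (1.69 to 1.96) and 1.76 for NR1D1 (1.60 to 1.93). It was 0.17 for ARNTL (-0.26 to 0.61) and -0.07 for NPAS2 (-0.23 to 0.10), both including 0. These intervals hold counting error alone, so whether the lines differ in response beyond the variation between cultures was not tested.

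**Figure D4:**
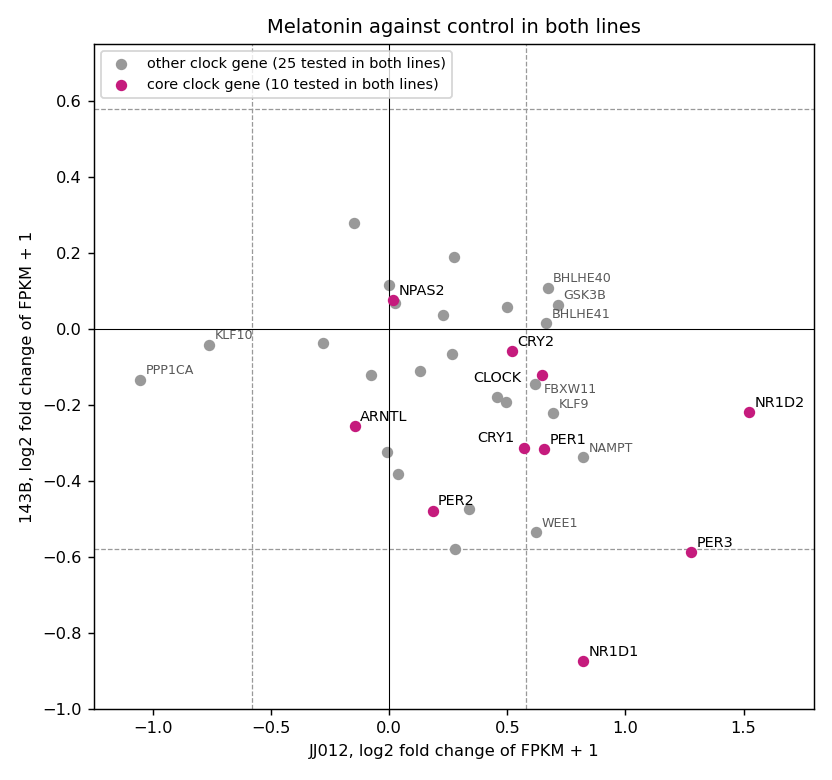
Log2 fold change of FPKM + 1, melatonin over control, in JJ012 (x axis) and 143B (y axis) for the 10 core clock genes (magenta) and 25 other clock genes tested in both lines (grey, named where past the threshold in JJ012), with dashed lines at the threshold of 0.58 in either direction. NR1D1 and PER3 lie at the lower right, past the threshold in both lines with opposite signs, and ARNTL is the only core gene left of 0 (with TPM it lies at 0.017).

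The ratio of each gene to ARNTL within a library does not depend on the library total. It does depend on the level of ARNTL, which had 139 to 197 counts per library. NR1D2 stood at 9.42 times the FPKM of ARNTL in the JJ012 control, 33.8 times in JJ012 with melatonin, 8.62 times in the 143B control and 9.83 times in 143B with melatonin. NR1D1 stood at 13.5, 29.2, 20.6 and 14.8 times in the same order. PER1 stood at 12.4, 23.8, 10.7 and 11.4 times. For all 3 the library of JJ012 with melatonin was the highest. In 143B the ratios of NR1D2 and PER1 were higher with melatonin, though both genes were lower in CPM (ratios of 0.850 and 0.792), since ARNTL was lower too (0.745). PER3 stood at 4.24, 13.4, 0.650 and 0.326 times, so that it exceeded ARNTL in JJ012 and lay below it in 143B.

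Some genes of the table had a like pattern over the 4 libraries. Of 8529 protein-coding genes that reached 5 FPKM somewhere, those nearest to ARNTL by Euclidean distance of centred log2(FPKM + 1) were HNRNPA2B1, an RNA-binding protein (0.029), NDUFAF7, an assembly factor of respiratory complex I (0.046) and CAMK2G, a calcium-dependent kinase (0.048). On this scale ARNTL varied little, and so did its neighbours. ARNTL itself, at 1.24 to 1.77 FPKM, lay under the 5 FPKM asked of the neighbours, and the pseudocount of 1 narrows its range. Those nearest to NR1D1 were TM4SF19 (0.174), SEC24A, a coat protein of secretory vesicles (0.234) and VCPIP1, a deubiquitinase (0.282). TM4SF19 was at 20.22 FPKM in the JJ012 control, 30.76 FPKM with melatonin, 34.40 FPKM in the 143B control and 17.55 FPKM with melatonin. The likeness rests on 4 libraries.

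The untreated lines differed in 7 of the 10 core clock genes. PER3 was higher in the JJ012 control than in the 143B control, and 6 genes were lower, PER2, CRY1, CLOCK, CRY2, NR1D1 and NPAS2. Of 16929 tested genes 68.7% passed the threshold in either direction, 41.3% higher in JJ012 and 27.4% lower. The count of 7 of 10 in either direction thus lies near the rate of the whole table. The median over the 10 genes was -0.81, while that over all tested genes was 0.29, and the same 7 genes passed in the same directions after centring on the median gene and with TPM. Over all called genes 60.1% were higher in JJ012, against 48.6% after centring and 49.3% with TPM. This comparison shares each control library with 1 of the melatonin comparisons above.

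PER2 and PER3 differed most between the lines, in opposite directions, and PER1 hardly differed. PER2 was at 1.29 FPKM in the JJ012 control and 8.11 FPKM in the 143B control, 6.30-fold lower in JJ012 by CPM (5.34 to 7.47). PER3 was at 6.27 and 1.15 FPKM, 5.44-fold higher in JJ012 (4.57 to 6.50). PER1 was at 18.38 and 18.96 FPKM, with a CPM ratio of 0.969 and an interval that included 1. Of the summed level of the 3 PER genes, PER3 made up 24.2% in the JJ012 control and 4.08% in the 143B control, PER2 made up 4.97% and 28.7%, and PER1 made up 70.9% and 67.2%. With melatonin the PER3 share was 34.8% in JJ012 and 2.05% in 143B.

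**Figure D5:**
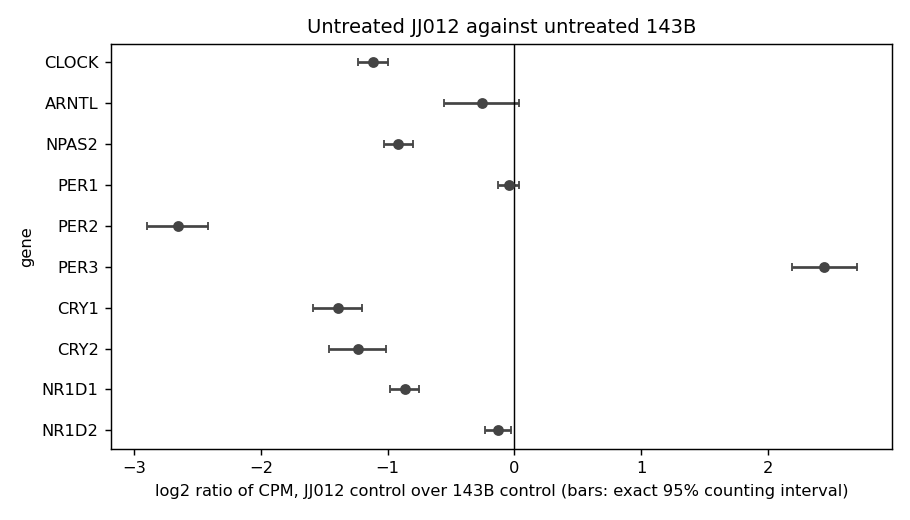
Log2 ratio of CPM of each core clock gene, the untreated JJ012 library over the untreated 143B library, with exact 95% counting intervals as bars. PER2 at 6.30-fold lower and PER3 at 5.44-fold higher lie at the ends, and the intervals of PER1 and ARNTL include 0.

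CRY1 was 2.63-fold lower in the JJ012 control by CPM, CRY2 2.36-fold lower, CLOCK 2.17-fold lower, NPAS2 1.89-fold lower and NR1D1 1.82-fold lower. CRY1 nevertheless made up a like share of the summed cryptochrome level, 62.7% in the JJ012 control and 65.2% in the 143B control. NR1D2, at 13.94 and 15.26 FPKM, and ARNTL, at 1.48 and 1.77 FPKM, did not pass the threshold. Over the 10 genes, 1 counting interval lay above 0 (50.8% of tested genes), 7 lay below (35.1%), and those of ARNTL and PER1 included it. THRA, which shares bases with NR1D1, had 2372 counts in the JJ012 control and 422 in the 143B control, and TMEM165, which shares bases with CLOCK, had 3888 and 11911.

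Other genes of the clock were described with a list of 31, which holds receptors and paralogs, D-box factors, further repressors, modifying enzymes, partners of PER and CRY, and outputs. In JJ012 26 of them were tested, 7 were higher with melatonin and 3 lower, with a median of 0.27. Since 38.2% of all tested genes passed, 10 of 26 lies at the rate of the whole table. BHLHE40 and BHLHE41, E-box repressors that compete with CLOCK and BMAL1, were at 80.82 and 129.19 FPKM and at 12.04 and 19.66 FPKM. GSK3B, a kinase of several clock proteins, was at 5.28 and 9.31 FPKM, and FBXW11, which marks PER proteins for degradation, was at 22.25 and 34.68 FPKM. Among the outputs NAMPT, which makes a precursor of NAD, was at 4.61 and 8.91 FPKM, WEE1, a kinase that holds back mitosis, at 8.49 and 13.61 FPKM, and KLF9, a transcription factor induced by glucocorticoids, at 25.60 and 42.07 FPKM.

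The 3 that passed downward in JJ012 were CIART, PPP1CA and KLF10, the last not with TPM. CIART, a repressor of CLOCK and BMAL1, was at 2.01 FPKM in the control and 0.78 FPKM with melatonin, from 110 and 36 counts. PPP1CA, a phosphatase subunit, was at 28.88 and 13.38 FPKM, and KLF10, a transcription factor induced by TGF-beta, at 23.52 and 13.46 FPKM. The median of the list less that of genes of like length was 0.17, and 6 genes then passed in place of 10, 4 higher (BHLHE40, BHLHE41, KLF9 and NOCT) and 2 lower (PPP1CA and KLF10). Of all tested genes 34.7% then passed.

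In 143B 27 of the 31 were tested and 0 passed the threshold, against 12.7% of all tested genes, with a median of -0.11. TEF, a D-box activator, came closest at 8.73 FPKM in the control and 5.51 FPKM with melatonin, a log2 fold change of -0.58 that fell just short. DBP, another D-box activator, was at 2.25 and 1.34 FPKM, and WEE1 at 4.45 and 2.76 FPKM. These 3, lower in each case, passed with a pseudocount of 0.1 FPKM, with TPM and with CPM, where 20.9%, 19.3% and 11.4% of all tested genes passed. In JJ012 the 3 tested D-box factors did not pass, with DBP at 10.51 and 13.53 FPKM, TEF at 4.75 and 5.98 FPKM and NFIL3 at 38.08 and 39.10 FPKM. With TPM DBP passed upward there, where 50.3% of all tested genes passed. In CPM DBP was 1.29-fold higher (1.19 to 1.39) and TEF 1.26-fold higher (1.10 to 1.44), while the interval of NFIL3 included a ratio of 1.

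Between the untreated lines 28 of the 31 were tested, 3 were higher in JJ012 and 13 lower, with a median of -0.29, against 41.3% higher and 27.4% lower of all tested genes. RORA, a receptor that activates ARNTL, was at 0.23 FPKM in the JJ012 control, 0.35 FPKM in JJ012 with melatonin, 29.54 FPKM in the 143B control and 20.51 FPKM in 143B with melatonin. ARNTL2, a paralog of ARNTL, was at 1.95 and 1.43 FPKM in JJ012 and at 20.06 and 19.53 FPKM in 143B, while ARNTL stayed between 1.24 and 1.77 FPKM in all 4.

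The 3 tested D-box factors also differed between the lines, DBP at 10.51 FPKM in the JJ012 control and 2.25 FPKM in the 143B control, TEF at 4.75 and 8.73 FPKM, and NFIL3 at 38.08 and 119.50 FPKM. CIART and WEE1 were also higher in JJ012, at 2.01 against 0.33 FPKM and 8.49 against 4.45 FPKM, though WEE1 did not pass after centring on the median gene or with TPM, nor CIART after the length-bin median was subtracted (0.46). Lower in JJ012 were BHLHE40 at 80.82 against 313.19 FPKM, CSNK1E at 20.27 against 50.18 FPKM and CSNK2A1 at 4.01 against 9.94 FPKM, the last 2 being kinases of PER and BMAL1. NONO at 26.84 against 70.79 FPKM and WDR5 at 13.41 against 22.49 FPKM, which are partners of PER proteins, were lower too. The outputs NOCT at 2.17 against 6.96 FPKM, NAMPT at 4.61 against 15.03 FPKM and KLF10 at 23.52 against 92.14 FPKM were likewise lower. FBXL21P, an F-box gene whose symbol marks it as a pseudogene, had 0 counts in both JJ012 libraries and 148 and 211 in 143B.

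A change shared by both lines was asked of the counts with edgeR's quasi-likelihood test, with the cell line as a block and the 2 lines taken as the replicates. With Benjamini-Hochberg adjustment it called 68 of 19301 genes (0.352%), 12 higher and 56 lower with melatonin, and 0 of the 10 core clock genes. At an unadjusted p under 0.05 it counted 1139 genes (5.9%) and again 0 of the 10. DESeq2 with the same design called 7 of 13932 genes (0.0502%) and also 0 of the 10. At such low shares, 0 of 10 says little about the core clock genes. NR1D2 came closest with a log2 fold change of 0.67, an unadjusted p = 0.120 and an adjusted p = 0.999937 in edgeR. PER3 was at 0.09 and NR1D1 at -0.03 in this fit, where the opposite signs of the 2 lines cancel. The fit has 1 residual degree of freedom, and its estimate of spread was pooled fully over genes (prior degrees of freedom infinite). A response that differs between lines thus enters the pooled spread and hardly widens the test of that gene alone.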

How the data were processed

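Poly(A) RNA of JJ012 and 143B cells was sequenced in paired ends of 150 bases (4 libraries, 1 per condition). The submitters' processing notes name cutadapt 1.9.1, HISAT2 2.2.1, HTSeq 0.6.1, DESeq2 and hg38, and the strand setting was not given in the sources used here. The authors deposited raw counts per gene and library. The deposited FPKM scale the counts by exonic length and library total, and recomputed values differed by less than 0.005. Exonic lengths and positions were also deposited by the authors. Columns were matched to samples by the name of the line, and the suffix T was read as melatonin.

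Log2 fold changes were computed on FPKM + 1 (the pseudocount) for genes reaching 1 FPKM in either library, with a threshold of 0.58. Counts divided by the library total (CPM) gave ratios with exact (Clopper-Pearson) 95% intervals, and intervals and floors cover counting error only. The design's shared-change test used edgeR 4.0.16 (TMM, cell line as a block, adjusted p under 0.05). All comparisons that share a control library are named as such. Alternatives were a pseudocount of 0.1, no filter, a filter of 5 FPKM, centring on the median gene, TPM, CPM, TMM factors, a threshold of 1, values less the median of 20 length bins, protein-coding genes alone (GENCODE 29), and for the counts DESeq2 1.42.0, its size factors, no filter and no line term. The genes named are the 10 members, the genes of the list of 31 called in a comparison, and for ARNTL and NR1D1 the 3 genes nearest in pattern. DBP, TEF and WEE1 in 143B and the JJ012 values of D-box factors were named after their values were seen, as were overlapping genes. Some genes of the planned list are not reported here. The members and lists were chosen with earlier results of these data known. Promoter windows came from RefSeq (GRCh38.p14), whose starts can lie away from the gene starts in the deposited table. The procedures were tested on simulated data, with counting error alone for fold changes and less spread than these data for edgeR. Those simulations do not show how the procedures perform at the spread of these data. Computations used Python 3.11.15, numpy 2.4.6, scipy 1.17.1, pandas 2.3.3, matplotlib 3.10.9 and R 4.3.3.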

Additional observations from a re-analysis of the deposited data

Results flagged for a closer look

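For 6 core clock genes the 2 lines moved in opposite directions with melatonin, with counting intervals on opposite sides of 0, and the difference between the lines was not tested beyond counting error because each condition had 1 library. The log2 CPM ratio of JJ012 less that of 143B was 0.91 for CLOCK, 1.02 for PER1, 2.83 for PER3, 1.05 for CRY1, 1.76 for NR1D1 and 1.82 for NR1D2. Of all genes tested in both lines 11.0% had this pattern. The same held for 9 of the 25 genes of the further list tested in both lines, and again the difference was not tested: 1.11 for DBP, 1.0 for TEF, 0.34 for CSNK1E, 0.81 for CSNK2A1, 0.79 for FBXW11, 0.26 for WDR5, 1.31 for NAMPT, 1.37 for WEE1 and 0.95 for KLF9. In all 15 genes the ratio was above 0 in JJ012 and below 0 in 143B.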

How the results depend on the processing

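In JJ012 the count of 5 core clock genes was 2 at a threshold of 1 (NR1D2 and PER3) and 3 less the length-bin median, and lay between 5 and 7 under the other alternatives. Of all tested genes 14.7% passed at a threshold of 1, 34.7% less the length-bin median and 11.5% (no filter) to 50.3% (TPM) under the others. In 143B the count of 2 was 1 with a filter of 5 FPKM, 0 at a threshold of 1 and 3 with TPM (PER2 added), where 7.71%, 4.45% and 19.3% of all tested genes passed. Between the controls the count of 7 was 3 at a threshold of 1, where 47.2% of all tested genes passed. For the list of 31 the JJ012 count of 10 was 6 less the length-bin median, and the 143B count of 0 was 3 with a pseudocount of 0.1, TPM or CPM and 1 with centring, TMM factors or the length bins (TEF). Under these 143B settings 11.4% (CPM) to 20.9% (pseudocount of 0.1) of all tested genes passed. The edgeR count of 68 genes was 0 without the line term (6 at an unadjusted p under 0.05) and 7 with DESeq2. The sign of ARNTL in JJ012 turned with TPM (0.017) and that of NPAS2 less the length-bin median (-0.31). In all, 65 of 76 values of single core genes in JJ012, 76 of 77 in 143B and 78 of 78 between controls kept direction and side of the threshold. This tally leaves out the threshold of 1 and protein-coding genes alone. It includes no filter and the filter of 5 FPKM, which leave the value of a tested gene unchanged by construction. With TPM the median of all genes in JJ012 was 0.27, and 68.8% of called genes were higher in place of 51.4%. The edgeR fit pairs control and melatonin within each line, and the labels carry no replicate numbers for any other pairing. Leaving out a library leaves that fit no residual degree of freedom.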
